A study of Mus musculus with 6 samples.

Results

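Immunoglobulin constant genes and genes of plasma cells were followed in RNA sequencing of bone marrow progenitors from mice with and without colitis. The set held 10 of the 56750 rows of the deposited gene table, taken by symbol: the light chain constants Igkc and Iglc2, the heavy chain constants Ighm, Ighg1, Ighg2b, Ighg2c and Igha, and the plasma cell genes Jchain, Mzb1 and Sdc1. They were chosen by name and with their TPM levels in these same libraries, and the DIC and control difference in them, in view, so their levels and their difference between the groups are given as a description and without a p-value.

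The libraries came from C57BL/6 mice. One group had colitis induced by 2.5% dextran sulfate sodium (DSS) over 5 days, called DIC after the labels, and the other was the control group, with 3 mice and 3 libraries each. The cells were sorted from femoral marrow as Lin- Sca1+ cKit+ (LSK), a gate for blood stem cells and early progenitors that leaves out cells with lineage markers. The markers in the lineage cocktail, and the age and sex of the mice, are not given in the sources used here. Libraries are named DIC 1, DIC 2, DIC 3, control 1, control 2 and control 4 after the numbers in the table.

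An antibody is built from paired heavy and light chains, each with a variable segment and a constant region. B cells first make mu heavy chains, and class switching later replaces the mu constant region with a gamma, epsilon or alpha one that lies farther along the same locus. Plasma cells, many of which live in the bone marrow, secrete antibody in bulk, and those that make polymeric IgA or IgM add the J chain. The unrearranged mu locus is also transcribed in progenitors that have made no antibody, so Ighm RNA alone does not mark a B cell.

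Values are TPM, the share of a library's transcripts that a gene takes once gene length is accounted for. The table keeps no read depth, so the counting error of a value is unknown, and each library listed 20474 to 22720 genes above 0. A value of 0 can be a failed estimate and is reported as listed at 0. The sort genes Kit and Ly6a, which encode cKit and Sca1, were present in all 6 libraries at 54.2 to 99.5 and 15.5 to 49.9 TPM. A list of 16 neutrophil markers made up 23.5% of summed TPM in DIC 1, 16.6% in DIC 2 and 19.9% in DIC 3, beside 5.26% in control 1, 13.6% in control 2 and 4.21% in control 4, so neutrophil transcripts were a large part of every library and control 2 lay nearer to the DIC libraries than the other controls did. In a bulk sample, more cells of a type and more RNA per cell cannot be told apart.

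Some constant genes are close copies, and their coding sequences are shown because the isotype values depend on how reads were divided between them. The lambda constants Iglc2 and Iglc3 were 96.2% identical over their coding bases in the GENCODE annotation of GRCm38, and the gamma constants Ighg2b and Ighg2c 85.6% identical. The first 150 bases that the pair has in register are printed 5′ to 3′, on the minus strand of chromosome 16 for the lambda pair and of chromosome 12 for the gamma pair, with capitals at the bases that differ between the partners.
Iglc2: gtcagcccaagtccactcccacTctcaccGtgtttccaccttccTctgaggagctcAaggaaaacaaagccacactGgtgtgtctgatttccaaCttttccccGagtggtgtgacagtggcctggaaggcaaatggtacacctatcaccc
Iglc3: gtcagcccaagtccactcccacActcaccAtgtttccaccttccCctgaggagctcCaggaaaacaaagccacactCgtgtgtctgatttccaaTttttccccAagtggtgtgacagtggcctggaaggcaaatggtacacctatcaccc
Ighg2b: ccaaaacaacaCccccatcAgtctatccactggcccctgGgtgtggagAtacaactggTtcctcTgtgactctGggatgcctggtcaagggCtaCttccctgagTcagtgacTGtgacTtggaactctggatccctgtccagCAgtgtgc
Ighg2c: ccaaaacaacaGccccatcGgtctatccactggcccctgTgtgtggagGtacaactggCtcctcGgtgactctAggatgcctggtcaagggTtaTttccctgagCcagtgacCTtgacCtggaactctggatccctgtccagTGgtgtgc
The lambda pair differed at 7 of these bases and the gamma pair at 15. The longest identical run over the whole coding sequence was 79 bases in the lambda pair and 78 bases in the gamma pair. No window of 150 bases, the length of an untrimmed read, was shared by either pair (0 of 166 windows of Iglc2 and 0 of 858 of Ighg2b). Shorter reads, as trimming leaves, can fall within a shared run, so Iglc2 and Ighg2b stand with that uncertainty.

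The 10 genes showed 3 patterns. The kappa and lambda light chains, J chain and the switched heavy chains were highest in DIC 1 and next in DIC 3. Switched here names the gamma and alpha constant genes. Gene TPM does not show whether a transcript carries a variable segment, so class switching itself was not measured. The mu heavy chain had nearly the same level in both groups. Mzb1 and Sdc1 had lower means in DIC. Of the 10 genes, 8 passed the filter of at least 1 TPM in at least 3 libraries, and Ighg1 and Ighg2c stayed under it. The median log2 difference of those 8, DIC minus control on log2(TPM + 1), was 1.24, beside -0.08 over all 13496 tested genes, and 5 of the 8 lay above 0, beside 41.5% of tested genes. DIC 1 carried much of this, since the median was 0.15 without it and 2.1 without DIC 2.

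**Figure D1:**
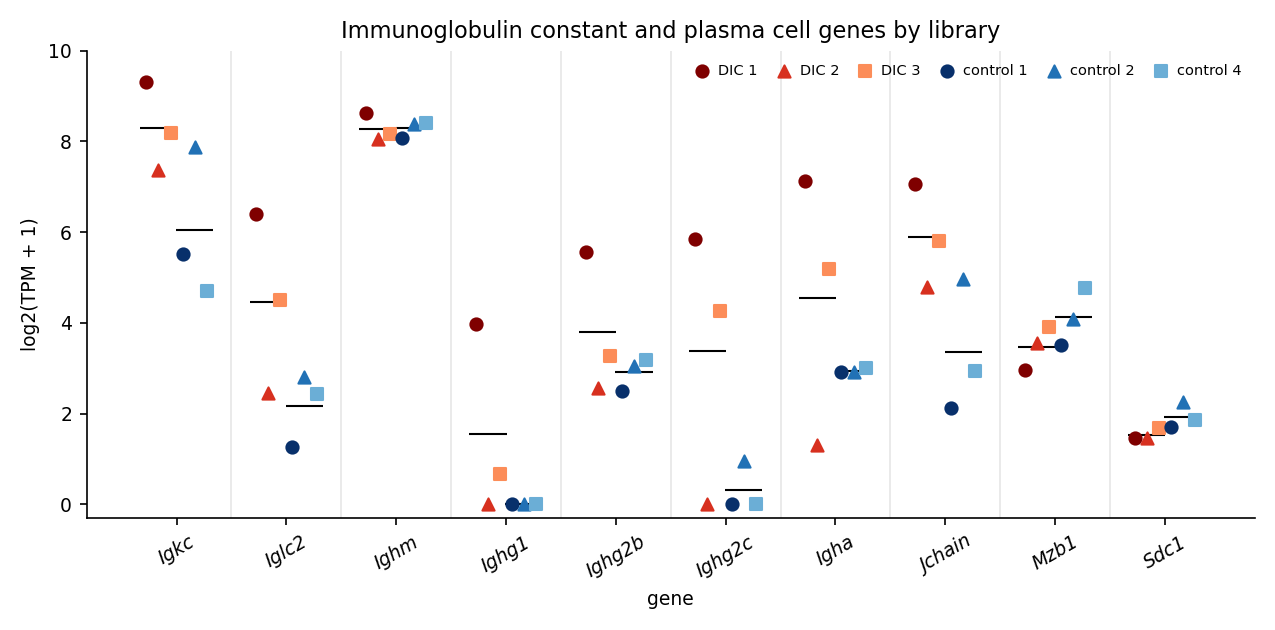
Level of each of the 10 genes in log2(TPM + 1) on the vertical axis. Each symbol is 1 library and each black bar the mean of the 3 libraries of a group. DIC 1 is the highest library for the light chains, the switched heavy chains and Jchain, at 631 TPM for Igkc and 132 TPM for Jchain, and the lowest for Mzb1.

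Igkc encodes the constant region of the kappa light chain, the main light chain of the mouse. It measured 631 TPM in DIC 1, 165 in DIC 2 and 292 in DIC 3, against 45.1 in control 1, 234 in control 2 and 25.3 in control 4. Controls 1 and 4 lay below all DIC libraries, but control 2 lay above DIC 2, so the groups overlapped. The means were 362.4 ± 240.7 TPM in DIC and 101.3 ± 115.0 TPM in control (SD, n = 3 each), a log2 difference of 2.25 ± 0.83 (SE). The difference was 3.17 without control 2 and 1.59 without control 4. At its highest, Igkc stood at percentile 98.7 of the tested genes of DIC 1, against 64.4 in control 4.

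Iglc2, a lambda light chain constant, measured 83.5, 4.50 and 21.8 TPM in DIC and 1.41, 5.99 and 4.37 TPM in control. DIC 1 and DIC 3 lay above the controls, and DIC 2 lay among them. The log2 difference of 2.29 ± 0.93 (SE) fell to 1.32 without DIC 1. The partner genes Iglc3 and Iglc1 were highest in the same library, with Iglc3 at 11.2, 3.53 and 5.99 TPM in DIC and 4.31, 0.83 and 3.05 TPM in control. Iglc1 reached 13.7 TPM in DIC 1 and 5.09 in DIC 3. It was listed at 0 in DIC 2 and control 2, and stood at 1.12 and 6.05 TPM in controls 1 and 4. Iglc4 was listed at 0 in all 6 libraries.

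The balance of light chains differed between libraries without separating the groups. Iglc2 made up 11.7%, 2.66% and 6.97% of Igkc plus Iglc2 across the DIC libraries, against 3.03%, 2.50% and 14.8% across controls 1, 2 and 4. With Iglc1 and Iglc3 counted as well, lambda took 14.7%, 4.64% and 10.1% of light chain TPM in DIC. The controls then had 13.2%, 2.84% and 34.8%. The high share in control 4 stood on a low kappa level of 25.3 TPM. Kappa was thus the larger light chain in all 6 libraries.

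Ighm encodes the constant region of the mu heavy chain of IgM. Its levels were 392, 266 and 287 TPM in the DIC libraries against 269.6, 336 and 336 TPM in the controls. DIC 1 was the highest library and DIC 2 the lowest, and the groups overlapped throughout. The means were 314.9 ± 67.6 and 313.9 ± 38.4 TPM (SD, n = 3), with a log2 difference of -0.01 ± 0.18 (SE). It was 0.25 after quantile normalization and 0.2 with the neutrophil list removed and TPM rescaled, a step that moved the median of all genes from -0.08 to 0.1. Ighd, which encodes the delta chain and lies next to Ighm in the locus, was low, at 5.90, 2.50 and 4.15 TPM in DIC and 1.30, 3.51 and 3.64 TPM in control.

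Set against this steady mu level, kappa varied widely. There were 160.9, 62.1 and 101.6 TPM of Igkc for each 100 TPM of Ighm in DIC 1 to 3, and 69.6 in control 2. Controls 1 and 4 held 16.7 and 7.51. Both are constant regions that a complete IgM would carry together, and their ratio spanned a wide range between libraries whose Ighm levels were alike. In controls 1 and 4 Ighm made up 80.7% and 85.4% of the TPM of all 13 constant rows, and in DIC 1 28.0%.

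The switched heavy chains were seen mainly in DIC 1 and DIC 3. In GRCm38 the constant genes follow each other in the order Ighm, Ighd, Ighg3, Ighg1, Ighg2b, Ighg2c, Ighe and Igha, and the gamma genes are described first. Ighg1, the constant of IgG1, was at 14.7 TPM in DIC 1 and 0.59 TPM in DIC 3, while DIC 2 and the 3 controls listed it at 0. Ighg2c, the IgG2 form that C57BL/6 mice carry, was at 56.5 TPM in DIC 1 and 18.3 TPM in DIC 3, at 0.94 TPM in control 2, and listed at 0 in DIC 2, control 1 and control 4. Both rows are thus near or at 0 in DIC 2 and the controls, and no fold is given for them.

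Ighg2b, the constant of IgG2b, was at 45.98, 4.88 and 8.59 TPM in DIC and 4.63, 7.26 and 8.15 TPM in control. DIC 1 stood alone above the rest, and the other 5 libraries lay within 4.63 to 8.59 TPM. The log2 difference was 0.88 ± 0.71 (SE), with -0.0023 without DIC 1 and 1.5 without DIC 2. Ighg3, the IgG3 constant and not among the 10 genes, was at 6.33 TPM in DIC 1 and 2.99 TPM in DIC 3, with 0 listed elsewhere. Ighe, the IgE constant, reached at most 0.16 TPM.

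Igha, the constant of IgA, the antibody class of the gut and other mucosa, measured 139, 1.48 and 35.3 TPM in DIC and 6.54, 6.56 and 7.03 TPM in control. The controls were close together, while the DIC libraries held both the highest values and the lowest. The means were 58.6 ± 71.6 and 6.71 ± 0.277 TPM (SD, n = 3), and the log2 difference of 1.59 ± 1.29 (SE) was 0.3 without DIC 1 and 3.21 without DIC 2. The SD among DIC libraries was thus larger than the difference of the means.

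As shares of the 5 heavy chain genes, the switched genes together took 39.5%, 2.34% and 17.9% of the TPM across the DIC libraries, beside 3.98%, 4.21% and 4.32% across controls 1, 2 and 4. DIC 2 lay below every control and the other DIC libraries far above them. The mean shares were 19.9% ± 18.7 and 4.17% ± 0.174 (SD, n = 3), a difference of 15.8 percentage points that was 5.97 without DIC 1 and 24.6 without DIC 2. An exact permutation test of 3 against 3 libraries cannot give a p below 0.1, and none was used for these shares. Igha took 21.4% of heavy chain TPM in DIC 1 and 10.1% in DIC 3, Ighg2c 8.72% and 5.23%, and Ighg2b 7.09% and 2.46%. The gamma genes together made up 45.8% of switched TPM in DIC 1 and 43.8% in DIC 3, at switched totals of 256.2 and 62.7 TPM.

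**Figure D2:**
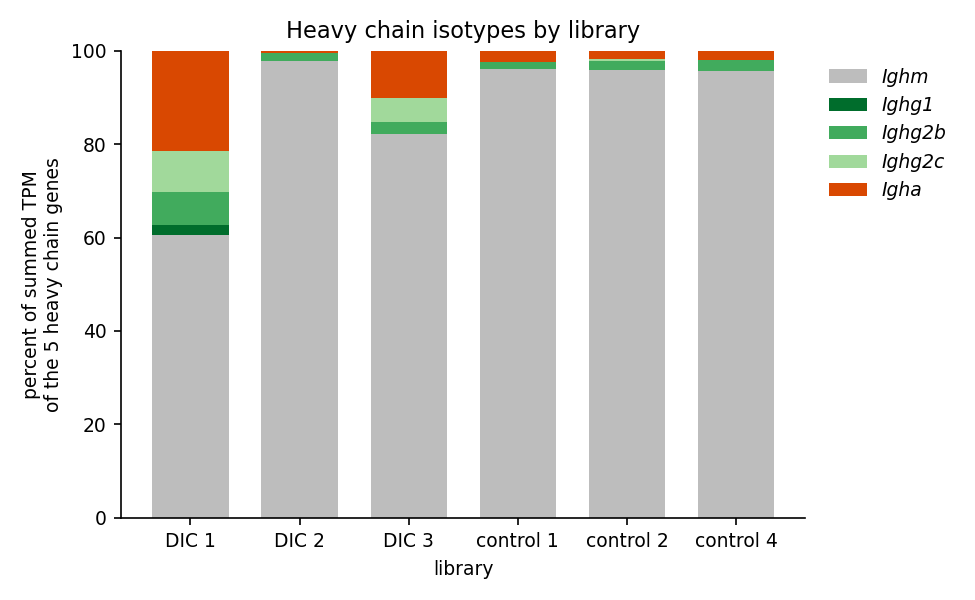
Share of each heavy chain constant gene in the summed TPM of the 5 genes, in percent, 1 bar per library. Ighm takes 95.7% to 97.7% in the controls and DIC 2, 82.1% in DIC 3 and 60.5% in DIC 1, where Igha is the next largest at 21.4%.

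Jchain encodes the joining chain that links IgM and IgA into polymers. It was at 132, 26.9 and 55.2 TPM in DIC and 3.39, 30.5 and 6.68 TPM in control. As with Igkc, control 2 lay above DIC 2 and the other controls lay below all DIC libraries. The means of 71.4 ± 54.5 and 13.5 ± 14.8 TPM (SD, n = 3) gave a log2 difference of 2.54 ± 0.81 (SE). It was 3.35 without control 2 and 1.93 without control 1.

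For 100 TPM of Igkc there were 21.0, 16.3 and 18.9 TPM of Jchain across the DIC libraries, and 7.52, 13.1 and 26.5 across controls 1, 2 and 4. Igha stood at 105.1%, 5.51% and 63.9% of the Jchain level in DIC 1 to 3, against 192.9%, 21.5% and 105.2% in controls 1, 2 and 4. This ratio was lowest in DIC 2 and control 2 and did not separate the groups. In controls 1 and 4 it rests on Jchain levels of 3.39 and 6.68 TPM.

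Mzb1 encodes a chaperone of the endoplasmic reticulum that helps to assemble and secrete immunoglobulin in B cells and plasma cells, and it is also made by plasmacytoid dendritic cells. It measured 6.83, 10.8 and 14.1 TPM in DIC and 10.4, 16.1 and 26.4 TPM in control. The lowest value was in DIC 1, the library with the most Jchain, and the highest in control 4, where Jchain was at 6.68 TPM. The means were 10.6 ± 3.63 and 17.6 ± 8.12 TPM (SD, n = 3), with a log2 difference of -0.65 ± 0.37 (SE), which was -0.32 without control 4 and -0.39 without DIC 1. Mzb1 amounted to 5.16 TPM per 100 TPM of Jchain in DIC 1 and to 306.5 and 395.5 in controls 1 and 4.

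Sdc1, which encodes the plasma cell surface proteoglycan syndecan-1 (CD138), was low throughout, at 1.75, 1.75 and 2.23 TPM in DIC and 2.24, 3.77 and 2.63 TPM in control. Every DIC library lay below every control, by a margin of 0.01 TPM between DIC 3 and control 1. The log2 difference was -0.4 ± 0.23 (SE), and -0.24 without control 2. Sdc1 was the single gene of the 8 whose groups did not overlap on the lower side, beside 18.4% of tested genes, and 0 of the 8 did so on the higher side, beside 7.08%.

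Of the genes known to define plasma cells, 3 were at low levels in both groups. Prdm1, which encodes the plasma cell regulator BLIMP-1, was at 0.06 to 0.16 TPM in DIC and 0.16 to 0.55 TPM in control. Tnfrsf17, the receptor BCMA of long-lived plasma cells, reached at most 0.42 TPM in DIC and 0.33 TPM in control. Irf4, another regulator, was at 0.28 to 0.5 TPM in DIC and 0.3 to 2.5 TPM in control. None of the 3 passed the filter, and DIC 1, with the most immunoglobulin RNA, held 0.16, 0.26 and 0.5 TPM of them. Some other plasma cell genes were highest in DIC 1, among them Cd38, a surface enzyme, at 3.27 TPM beside 0.77 to 2.08 TPM elsewhere. Tent5c was at 1.47 TPM beside 0.38 to 1.2 TPM, and Eaf2 at 0.85 TPM beside 0.22 to 0.68 TPM. These were named after their values were seen, and their groups overlapped. Further genes of the receptor and secretory lists went the other way, with Cd27, Fkbp11, Pdia6 and Herpud1 among those lowest in DIC 1. The plasma cell marker list of 7 genes, 3 of them among the 10 described here, summed to 165.8, 78.0 and 105.9 TPM in DIC and 97.4, 87.6 and 82.1 TPM in control, with Jchain making up most of it in DIC 1.

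Of 54 other genes of plasma cell regulation, survival, niche, secretion and class switching, 44 were tested and 0 passed in either direction (limma with Benjamini-Hochberg adjustment over all genes, threshold 0.05), beside 0.0593% of tested genes (0.037% called higher and 0.0222% lower). At an unadjusted limma p under 0.05, 2 were higher and 9 lower, beside 6.43% and 13.8% of all tested genes. Their median log2 difference was -0.32, and 14 separated the groups on the lower side and 2 on the higher side, beside 18.4% and 7.08% of all tested genes. Without control 2, 1 of the 44 rose and 7 fell, where the calls over all genes also increased, to 3.93% higher and 8.45% lower. The 1 that rose was Tnfsf13b, and those that fell included Apex1, Sec61b and Ssr4.

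Among the 8 regulators, 4 were tested, 0 passed (limma; 0 at an unadjusted p under 0.05) and 2 differed upward and 2 downward. Xbp1, the transcription factor of the secretory programme, was at 183, 178 and 186 TPM in DIC and 201.5, 202 and 201 TPM in control. Its log2 difference was small, at -0.14 ± 0.1 (SE, limma adjusted p = 0.439), although the groups did not overlap. Ell2, an elongation factor that favours secretory immunoglobulin mRNA, was highest in DIC 1 at 11.1 TPM, beside 3.94 to 7.36 TPM elsewhere (limma adjusted p = 0.58).

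Of the 10 surface and survival receptors, 8 were tested and 0 passed (limma; 0 at an unadjusted p under 0.05), with a median of -0.29. Cd28, which supports long-lived plasma cells as well as T cells, had a log2 difference of -0.88 ± 0.46 (SE, limma adjusted p = 0.323). Cxcr4, the receptor that holds plasma cells and progenitors in the marrow, was at 28.5 to 34.97 TPM in DIC and 32.2 to 49.9 TPM in control (limma adjusted p = 0.353).

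Among 7 niche genes, ligands that keep plasma cells alive and their partners, 5 were tested and 0 passed (limma). Of the 5, 2 were higher and 0 lower at an unadjusted limma p under 0.05, beside 6.43% and 13.8% of all tested genes. Tnfsf13b, which encodes the B cell survival factor BAFF, was at 13.4, 11.5 and 12.7 TPM in DIC and 2.54, 9.33 and 2.38 TPM in control, again with control 2 nearest to DIC (log2 difference 1.44 ± 0.42, SE, limma adjusted p = 0.212). Vcam1, an adhesion molecule, measured 76.7 to 83.3 TPM in DIC and 39.8 to 67.7 TPM in control (limma adjusted p = 0.237). Tnfsf13, the gene of the plasma cell factor APRIL, lay between 20.3 and 24.3 TPM in all libraries. Cxcl12, the chemokine of marrow stroma, stayed under 1 TPM, with 0.84 TPM as its highest value. Il6, which encodes the cytokine interleukin-6 and was named after its values were seen, reached 24.7 TPM in control 1 and 42.7 TPM in control 4, beside 0.38 to 0.64 TPM in the DIC libraries and control 2. It did not pass the filter.

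All 20 secretory pathway genes were tested, 17 with lower means on the log scale in DIC. None passed (0 by limma; 0 higher and 6 lower at an unadjusted p under 0.05, beside 13.8% of all tested genes lower). The groups were apart on the lower side in 9, beside 18.4% of all tested genes. Herpud1, a component of endoplasmic reticulum degradation, was at 80.5, 85.2 and 113 TPM in DIC and 147, 134 and 143 TPM in control (log2 difference -0.61 ± 0.15, SE, limma adjusted p = 0.212). Ssr4, a subunit beside the translocon, had a difference of -0.45 ± 0.14 (SE, limma adjusted p = 0.212). Derl3 and Fkbp11, secretory genes that plasma cells make in large amounts, were at 1.03 to 2.33 and 22.3 to 37.1 TPM in DIC and at 2.62 to 3.09 and 34.1 to 78.0 TPM in control.

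The switching and germinal center list had 7 of 9 members tested, of which 0 passed (limma). Of the 7, 0 were higher and 3 lower at an unadjusted limma p under 0.05, beside 6.43% and 13.8% of all tested genes. Batf, a transcription factor, had a log2 difference of -0.55 ± 0.16, and Apex1, a DNA repair enzyme with many other roles, of -0.77 ± 0.23 (SE, limma adjusted p = 0.212 for both).

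**Figure D3:**
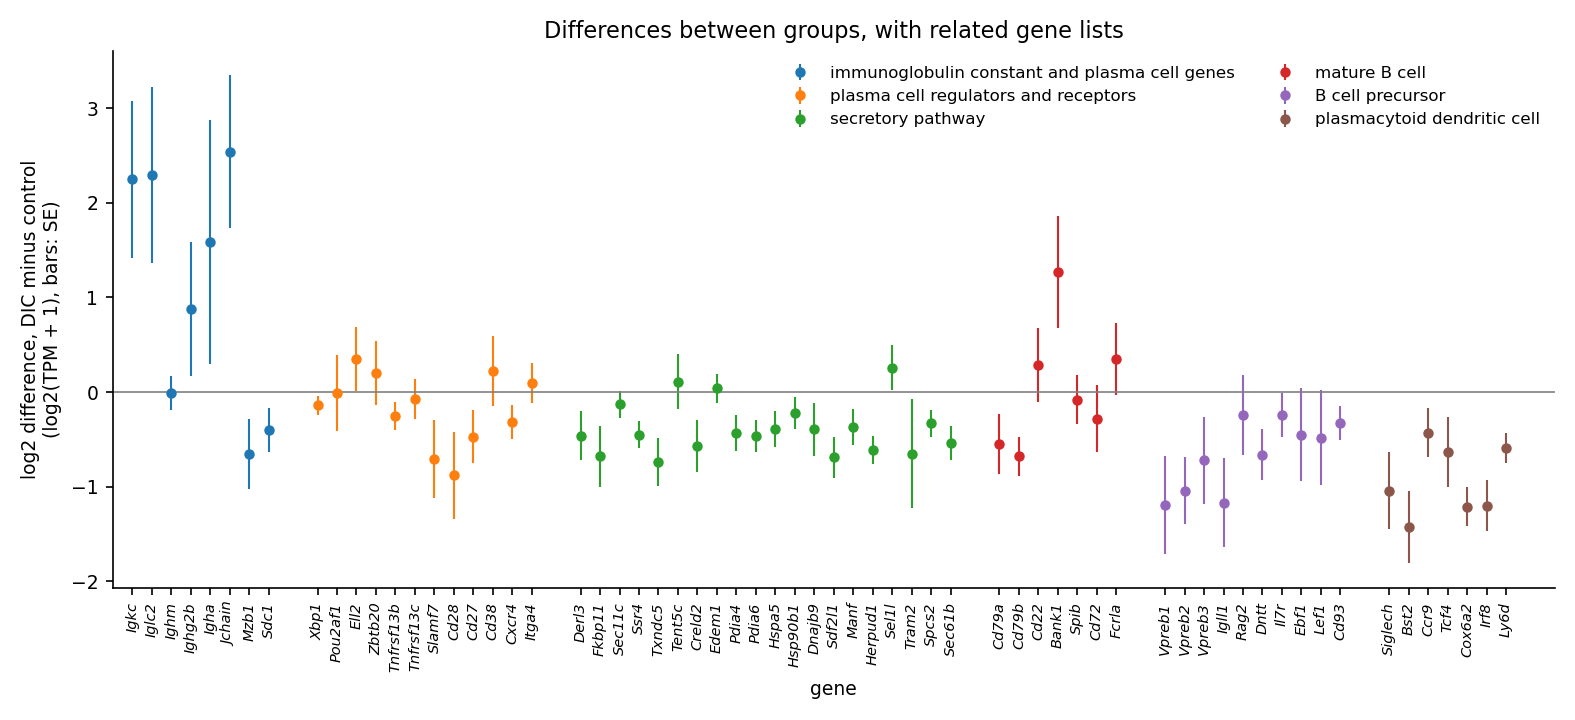
Log2 difference, DIC minus control on log2(TPM + 1), for the 8 genes that passed the filter and for related lists, with bars for the SE. Igkc, Iglc2 and Jchain lie at 2.25 to 2.54, while 17 of 20 secretory genes and all 10 tested B cell precursor genes lie below 0. Of all tested genes, 41.5% lie above 0.

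B cell genes were set beside the immunoglobulin genes as a description, since marker TPM in a bulk sample does not show which cells a library held. Of 13 mature B cell markers 8 were tested and 0 passed (limma), with a median of -0.18. With an unadjusted limma p under 0.05, 0 were higher and 2 lower, beside 6.43% and 13.8% of all tested genes. Cd79a was at 23.2, 28.7 and 37.1 TPM in DIC against 29.4, 38.6 and 69.8 TPM in control, and Cd79b, its partner in the B cell receptor, at 36.2 to 44.5 against 53.2 to 89.3 TPM (limma adjusted p = 0.212). Ms4a1, which encodes CD20 of mature B cells, went the other way at low levels, with 2.81, 0.25 and 1.04 TPM in DIC and 0.18 to 0.41 TPM in control. Bank1, a B cell scaffold protein gene, was named after its values were seen. It was at 15.2, 2.2 and 2.99 TPM in DIC and 0.97, 2.14 and 1.37 TPM in control (limma adjusted p = 0.278). Bank1 was the list's 1 gene without overlap on the higher side and Cd79b the 1 on the lower side. Of all tested genes, 7.08% and 18.4% did so. Fcer2a, also named after its values were seen, had 1.18, 0.03 and 0.75 TPM across the DIC libraries and no more than 0.2 TPM in any control. The list summed to 102.2 to 108.9 TPM in DIC and 107.9 to 209.5 TPM in control, and its part in the immunoglobulin values was not tested.

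All 10 tested B cell precursor genes had negative differences, where 41.5% of all tested genes lay above 0. Their median was -0.57, beside -0.08 over all tested genes, and 0 passed the threshold (limma). The unadjusted limma p was under 0.05 for 0 higher and 3 lower, beside 6.43% and 13.8% of all tested genes. Vpreb2 and Igll1, parts of the surrogate light chain of precursor B cells, had log2 differences of -1.04 ± 0.35 and -1.17 ± 0.47 (SE, limma adjusted p = 0.213 and 0.235). Igll1 was lowest in DIC 1 at 20.5 TPM and highest in control 4 at 158 TPM. These are also the lowest and highest libraries for Mzb1 and Cd79a, which is the reverse of their place for Igkc.

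Plasmacytoid dendritic cell markers also had negative differences. Of 8 genes 7 were tested, all with negative differences, a median of -1.04, and 0 past the threshold (limma; 0 higher and 5 lower at an unadjusted p under 0.05, beside 13.8% of all tested genes lower). For 6 of them the groups did not overlap, beside 18.4% of all tested genes on the lower side. Cox6a2 was at 3.45, 5.09 and 5.59 TPM in DIC and 13.7, 10.7 and 11.8 TPM in control, and Irf8 at 48.7 to 75.5 against 94.5 to 183.8 TPM (limma adjusted p = 0.212 for both). The list summed to 158.0 to 195.0 TPM in DIC and 264.3 to 542.5 TPM in control. Its part in the Mzb1 values was not tested.

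Igkc and Jchain were lowest in the controls of low neutrophil share and highest in DIC 1, but did not follow the share in every library. Controls 1 and 4, at 5.26% and 4.21% neutrophil TPM, held 45.1 and 25.3 TPM of Igkc, and control 2 at 13.6% held 234 TPM. DIC 2 at 16.6% held 165 TPM, DIC 3 at 19.9% 292 TPM and DIC 1 at 23.5% 631 TPM. Jchain and Iglc2 were also lower in DIC 2 than in control 2, and Iglc2 was at 4.50 TPM in DIC 2 beside 4.37 TPM in control 4. Within the neutrophil list 15 of 16 genes differed upward (median 2.03; 0 past the threshold by limma). All 15 were higher at an unadjusted limma p under 0.05 and 0 were lower, beside 6.43% and 13.8% of all tested genes. Ly6g was at 367, 71.3 and 182 TPM in DIC and 12.2, 48.8 and 7.50 TPM in control. Itgam was at 81.9 to 172 against 15.4 to 58.1 TPM. In 12 of the 16 genes every DIC library lay above every control, beside 7.08% of all tested genes. Retnlg, Mmp8 and Cxcr2, named after their values were seen, had DIC 2 within the control range. Retnlg was at 5102, 81.4 and 1953 TPM in DIC and 63.7 to 108.8 TPM in control. Mmp8 was at 562, 13.3 and 197 against 6.69 to 14.6 TPM, and Cxcr2 at 87.0, 6.95 and 30.4 against 2.28 to 9.13 TPM. After removal of this list and rescaling, the log2 difference was 2.46 for Igkc and 2.75 for Jchain. The list's share was larger in DIC, so rescaling by itself raises the differences of the other genes. The median of all genes moved from -0.08 to 0.1. The part of mature cells in the immunoglobulin values was not tested.

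**Figure D4:**
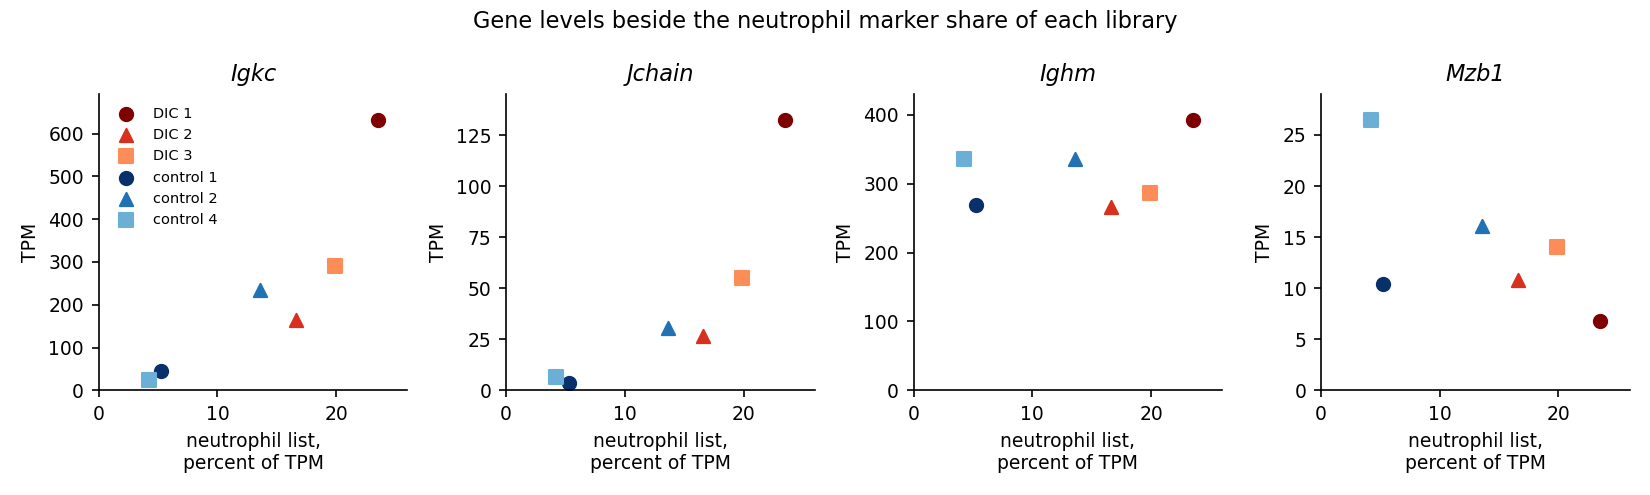
TPM of Igkc, Jchain, Ighm and Mzb1 against the percent of TPM taken by 16 neutrophil markers, 1 symbol per library. Igkc and Jchain are highest in DIC 1, at a neutrophil share of 23.5%, and lowest in controls 1 and 4, whereas Ighm stays within 266 to 392 TPM.

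Markers of the remaining cell types gave no single direction. All 8 tested erythroblast genes were higher in DIC (median 1.0; 0 past the threshold by limma). The unadjusted limma p was under 0.05 for 3 higher and 0 lower, beside 6.43% and 13.8% of all tested genes. Their sum of 670.4 TPM in DIC 1 and 396.3 in DIC 3 exceeded that of 148.6 to 222.3 TPM in DIC 2 and the controls. DIC 1 and DIC 3 were thus in front, as for the switched heavy chains. Epb42, a protein of the red cell membrane skeleton, was at 1.85 to 4.35 TPM in DIC against 0.4 to 1.05 TPM in control (limma adjusted p = 0.212). All 7 tested T and NK cell genes were lower (median -0.56; 0 past the threshold by limma). Here 0 were higher and 3 lower at an unadjusted limma p under 0.05, beside the same 6.43% and 13.8%. Klrb1c was at 0.53 to 1.27 against 1.79 to 3.21 TPM and Gzma at 0.48 to 2.33 against 2.87 to 9.56 TPM. The sort and stem cell list split into 4 higher and 4 lower of 8 tested (0 past the threshold by limma). In this list 0 were higher and 2 lower at an unadjusted limma p under 0.05, again beside 6.43% and 13.8%. Cd48 and Cd34 were lower in DIC at log2 differences of -0.67 ± 0.13 and -0.51 ± 0.19 (SE, limma adjusted p = 0.212 and 0.218).

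Genes with the profile most like that of Igkc over the 6 libraries were Gm28036, Akna, Zdhhc18, Cklf, Plp2, Sft2d2, Wdhd1 and Ptgir, with Pearson r of 0.994 to 0.999 on log2(TPM + 1) among 9832 genes with a mean of at least 5 TPM. They were picked as the highest of these genes over 6 libraries and are given as a description without a p-value. None of these 8 was an immunoglobulin gene. Jchain ranked 283 at r = 0.952, behind S100a8 at rank 91 and Ly6g at rank 149, while Igha ranked 2193 (r = 0.605) and Mzb1 6599 (r = -0.645).

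The libraries had the same order for kappa variable segments as for Igkc, apart from the tie of controls 1 and 4 in the count. Of 160 kappa variable rows, 71, 28 and 55 reached 1 TPM in the DIC libraries against 15, 40 and 15 in controls 1, 2 and 4, and of 185 heavy variable rows 78, 36 and 65 against 19, 39 and 27. Summed kappa variable TPM was 1466, 351.8 and 577.0 in DIC and 91.6, 487.8 and 76.1 in control. The most abundant kappa segment held 10.0% of the kappa variable TPM in DIC 1 and 15.6% to 25.8% in the other libraries, so no library's kappa RNA came from a single segment.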

How the data were processed

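RNA from sorted bone marrow cells of 6 mice was sequenced. The authors deposited 1 table of TPM values, 56750 rows by 6 libraries, with 2 decimals and a column sum of 1000000 within rounding. Per the submitters' processing notes, fastp 0.19.5, HISAT2 2.1.0, StringTie 2.1.2 and the build GRCm39 were used, while the annotation release and strand setting are not given in the sources used here. Symbols were matched by gene identifier to GENCODE M21 (GRCm38), giving 52081 rows a symbol and 4669 none, so coordinates are not reported. Of 139 marker and pathway list entries 1 had no row.

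The 13496 genes that reached 1 TPM in 3 or more libraries were fitted as log2(TPM + 1). The fit used limma 3.58.1 (R 4.3.3), a trended prior variance and the group alone, with two-sided p-values adjusted by Benjamini-Hochberg and a threshold of 0.05. The fit was also run on simulated data with independent noise for each gene. Such data do not cover a shift shared by many genes of a library, and the outcome is not reported here. Fold changes on this scale understate those of low genes. Table columns were matched to groups by name. Control columns 1 and 4 could not be tied to single samples because 1 sample is numbered differently in its title and its description. The labels say no more of replication than 3 mice per group, so a p-value here reflects the variation among these 6 libraries. Coding sequences were aligned with Biopython 1.88.

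The 10 genes and all lists were chosen with earlier results of these data known. Named genes were the 10, the other constant genes, up to 3 genes past the threshold or else the 2 of lowest p in each list, 9 fixed genes, and the 8 most like Igkc. Some named genes are not reported here. Alternatives were 2 other pseudocounts, scalings, filters, a fit without the trend, a replicate block and leaving out each library.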

Additional observations from a re-analysis of the deposited data

How the results depend on the processing

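Of 91 values of the 8 genes under alternatives, 83 kept their sign and moved by less than the replicate SD, and 8 changed sign, in Ighm and Ighg2b alone. Leaving out 1 of 3 libraries cannot move a value by as much as this SD, so for those settings the count shows sign changes only. Igha, counted as unchanged, was 1.59 with all libraries, 0.3 without DIC 1 and 3.21 without DIC 2. Ighm moved from -0.01 to 0.25 after quantile normalization, 0.2 with the neutrophil list removed, 0.1 with the replicate block, and lay between -0.18 and 0.1 with 1 library left out, above 0 without DIC 2, DIC 3, control 2 or control 4. Ighg2b lay between -0.0023 (without DIC 1) and 1.5 (without DIC 2). The median of the 8 genes ran from 0.15 to 2.1 with 1 library left out, and the switched share from 5.97 to 24.6 percentage points. Over all genes 5 were called higher and 3 lower. The higher count was 2 with a pseudocount of 0.1, 8 with 0.5 and 0 without a filter, and the lower count 1 after quantile normalization and 0 without a filter. With 1 library left out, the higher count ran from 0 to 530 and the lower from 0 to 1141, and among the other plasma cell genes from 0 to 1 and 0 to 7, in each case highest without control 2. With the number in the column as a replicate block, where numbers 1 and 2 are shared between the groups, 3 were called higher and 5 lower. Same-numbered libraries correlated at -0.068 and -0.102 in their deviations from the group means. These 2 values show no pairing, but with 3 libraries per group they cannot exclude one. Removing immunoglobulin rows gives no value for the constant genes or the median of the 8. The cause of these changes was not tested. Depth is unknown, so precision at low TPM cannot be stated.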
